A study of Oryza sativa Indica Group with 11 samples.

Results

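The comparison described here sets 3 arrays of salt-stressed IR29 rice against 3 arrays of salt-stressed FL478 rice, which are 6 of the 11 arrays of the study. The members were chosen by sample title alone, and no measured value entered the choice. Each array held RNA from the crown and growing point, the short stem base with the shoot apex, pooled from about 12 dissected plants. The study compared both lines with and without salt, and its other arrays are 3 of FL478 control plants and 2 of IR29 control plants, which served here as a second reading of the line difference in plants that had not been salted. The labels name no transgene and no treatment other than salt, and give neither salt dose, duration nor plant age. Each genotype is 1 line, so a difference between the groups is a difference between these lines and not between tolerant and sensitive rice in general.

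IR29 is a high-yielding indica cultivar that is sensitive to salt. FL478 withstands salt and was bred by selfing the progeny of IR29 and Pokkali, a tolerant landrace, so its chromosomes are a mosaic of segments from both parents. In rice under salt, tolerance is known to depend on keeping sodium out of the shoot, on holding potassium, and on the abscisic acid response that induces dehydrins, and the crown is where new leaves and tillers form. An array reports hybridization of labelled RNA to fixed probes, so in these values more RNA and a closer match of one line's transcript to the probes cannot be told apart. In a dissected tissue, fewer cells of a type and less RNA per cell cannot be told apart either.

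The values are log2 of the deposited signal intensity plus 16, quantile normalized, and are called levels below. A level of about 4 is the floor set by the added 16, so differences against a line near the floor depend on it. The median intensity lay between 50.7 and 55.6 on the IR29 salt arrays and between 61.1 and 67.1 on the FL478 salt arrays before normalization. Among 18135 probe sets with a mean level of at least 8, FL478 salt replicate 2 differed from the mean of the other arrays of its group by at least 1 at 2.61%, against 0.314% to 1.6% for the other salt arrays. The ratio of the 3' to the 5' actin probe set, a sign of RNA quality, was 1.55 to 1.79 (log2) in FL478 and 1.44 to 1.74 in IR29 under salt, and these ranges overlap. The same ratio of GAPDH was 1.42 to 2.82 in FL478 and 1.10 to 4.18 in IR29 and that of EF1a -5.21 to -1.37 and -5.68 to -2.56, also with overlap, and the spread among the arrays was wider than for actin. The labelled tissue was checked against marker genes: OSH1, a homeobox gene of the shoot meristem, stood between 11.65 and 12.30 on the 6 salt arrays, and PCNA, a marker of dividing cells, between 12.49 and 12.89. The 22 photosynthesis genes averaged 10.77 to 11.46 per salt array and the 11 root-preferred genes 7.69 to 8.45, and in both lists the lines overlapped.

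Differences are given as IR29 minus FL478 on the log2 scale with the standard error of a limma fit over all 11 arrays, and n is 3 and 3 throughout for salt. The call threshold was an adjusted p of 0.05 over all 57258 probe sets. Under salt, 992 probe sets were called, 1.73% of those tested, with 472 higher in IR29 (0.824%) and 520 higher in FL478 (0.908%). At an unadjusted p under 0.05 there were 6553 probe sets (11.4%). The 3 arrays of one line lay wholly above the 3 of the other at all 992 called probe sets, while 18.1% of all probe sets tested showed such a separation. The count depended on the salt arrays: it was 548 or 579 without FL478 salt replicate 1 or 3, and 543 or 655 without IR29 salt replicate 1 or 3. Without FL478 salt replicate 2 the count was 1279, and the count of those higher in IR29 was 728.

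The called differences were large. Their median size was 1.79, with 811 of at least 1, 433 of at least 2, 205 of at least 3 and 89 of at least 4, which is a 16-fold difference. The median was 1.86 for probe sets higher in IR29 and 1.73 for those higher in FL478. Calls were most frequent at middle levels: 3.95% of the probe sets with a mean level of 7 to 9 were called, 3.12% of those from 9 to 11, 2.11% of those above and 0.157% of those under 5. Both lines stood at 8 or more on all salt arrays at 353 of the called probe sets, so at these the difference was between readily measured levels. The array's annotation gives exactly 1 gene for 558 of the called probe sets, several genes for 3 and none for 431.

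**Figure D1:**
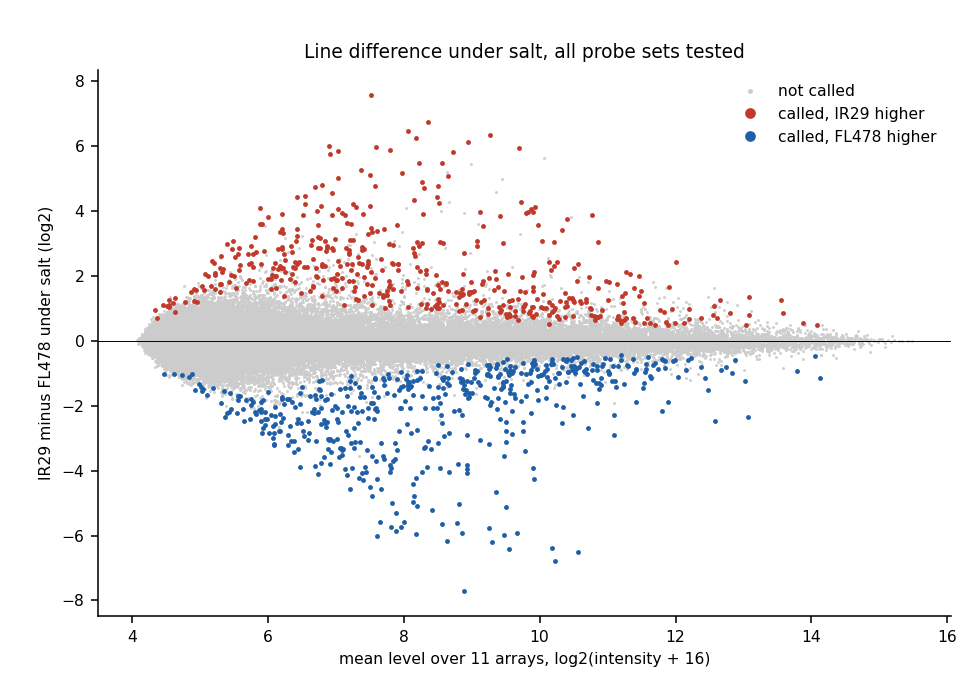
Each point is 1 of the 57258 probe sets, with its mean level over 11 arrays on the x axis and the IR29 minus FL478 difference under salt on the y axis (both log2). The 472 called probe sets higher in IR29 (red) and the 520 higher in FL478 (blue) reach differences of 7.58 and -7.72.

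At 46 called probe sets one line was bright and the other near the floor. In 20 of them all IR29 salt arrays were at 8 or more while all FL478 salt arrays lay under 5.58, and in 26 the lines were reversed. The largest difference in the whole comparison was at a probe set without an annotated gene, which read 12.68, 11.84 and 12.55 on the FL478 salt arrays and 4.06, 5.65 and 4.21 on the IR29 salt arrays. That is -7.72 ± 0.37 (adjusted p = 8.13e-07). The largest in the other direction, also without a gene, read 13.26, 12.38 and 10.87 in IR29 and 4.17, 4.20 and 5.41 in FL478, a difference of 7.58 ± 0.51 (adjusted p = 9.33e-06). LOC4342354 on chromosome 7 was the annotated gene with the largest excess in IR29 by its brightest probe set. It stood at 12.64, 13.21 and 12.95 in IR29 and at 6.10, 6.86 and 6.78 in FL478, a difference of 6.36 ± 0.26 (adjusted p = 8.13e-07). LOC9271082 on chromosome 3 was its counterpart, with 11.86, 11.71 and 12.65 in FL478 and 5.11, 6.20 and 5.66 in IR29, or -6.42 ± 0.93 (adjusted p = 0.00288). None of these 4 pairs of groups came within 5 units of each other.

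Taking the brightest probe set of each gene, 454 of 17905 genes were called (2.54%), 220 higher in IR29 (1.23%) and 234 higher in FL478 (1.31%). Of the 2454 genes with a descriptive symbol, 45 were called (1.83%). When 1 array was left out, the gene count was 236 or 244 without replicate 1 or 3 of FL478 under salt, and 225 or 285 without replicate 1 or 3 of IR29 under salt. The following genes are those with a symbol and the largest differences, arranged by what they encode.

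RBBI3.3, a Bowman-Birk type proteinase inhibitor of the defence list, and its neighbour pinA on chromosome 1 had the largest excess in IR29 among genes with a symbol. RBBI3.3 read 13.14, 12.26 and 12.59 on the IR29 salt arrays and 7.44, 10.67 and 7.50 on the FL478 salt arrays, a difference of 4.12 ± 0.84 (adjusted p = 0.0278). PinA read 12.98, 12.07 and 12.35 in IR29 and 7.14, 10.64 and 7.69 in FL478, or 3.98 ± 0.83 (adjusted p = 0.0327). At both genes FL478 salt replicate 2 stood about 3 units above the other FL478 salt arrays, yet below every IR29 array. Without it the differences were 5.21 and 5.07. The calls ended when either of the other FL478 salt arrays or any 1 IR29 salt array was left out, with an adjusted p of up to 0.163, and the pinA call also ended without either IR29 control array.

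Growth regulators came next. MADS47, a MADS-box transcription factor of the SVP group, stood at 10.71, 11.003 and 10.71 in IR29 and at 7.59, 7.94 and 7.68 in FL478. The lines were 3.07 ± 0.23 apart (adjusted p = 2.32e-05), which is 8.42-fold, and the spread within either line was under 0.4. SPL14, the transcription factor also known as IPA1 that restrains tillering and favours panicle branching, went the other way. It read 11.86, 11.41 and 12.05 in FL478 and 10.16, 10.82 and 10.36 in IR29, a difference of -1.33 ± 0.20 (adjusted p = 0.00344). ROC1, a homeobox gene of the outermost cell layer, was higher in IR29, with levels of 11.71, 11.62 and 11.86 against 10.96, 10.83 and 10.73 (0.89 ± 0.13, adjusted p = 0.00273). These 3 were the called genes among 108 shoot meristem regulators (2.78%, against 1.83% of the genes with a symbol and 2.54% of all genes). The list's median difference was -0.03. All gene lists hold only genes with a symbol, so the 1.83% is also the share to set beside the list percentages below.

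In the auxin list 4 of 58 genes were called (6.9%), and the median was -0.04 against -0.01 over all genes. IAA2, an Aux/IAA repressor of auxin response, read 11.06, 10.84 and 10.46 in IR29 and 9.75, 9.67 and 9.66 in FL478 (1.10 ± 0.17, adjusted p = 0.00562). IAA20, of the same repressor family, read 6.83, 6.35 and 6.90 in IR29 and 5.28, 5.43 and 5.19 in FL478 (1.39 ± 0.32, adjusted p = 0.0494). Both repressors were therefore higher in IR29 by their brightest probe sets, IAA20 from levels near the floor in FL478. The other probe sets of IAA20 gave 0.68 and 1.06 without a call (adjusted p = 0.569 and 0.367). The auxin response factors, which bind the promoters of auxin-regulated genes, divided. ARF7 was 0.50 ± 0.11 higher in IR29 (adjusted p = 0.0434) and ARF3 0.73 higher in FL478 (-0.73 ± 0.16, adjusted p = 0.0349). The lines did not overlap at either gene, which held at every called probe set and adds nothing to these calls. Of these 4 genes, the IAA20 call ended when any 1 of the 11 arrays was left out (adjusted p up to 0.205). The ARF3 call ended without any 1 salt array other than FL478 salt replicate 2 and without either IR29 control, and the ARF7 call without any 1 salt array and without FL478 control replicate 1. CYP701A19, a cytochrome P450 of the ent-kaurene oxidase family to which gibberellin synthesis enzymes belong, was the only call among 43 gibberellin and cytokinin genes (2.33%). It stood at 9.52, 9.62 and 9.72 in FL478 and at 8.25, 8.13 and 7.91 in IR29, a difference of -1.53 ± 0.20 (adjusted p = 0.00141).

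The lists of abscisic acid and dehydrin genes, of type 2C protein phosphatases and of osmolyte genes held 1 called gene each. RAB21, a dehydrin induced by abscisic acid, was the 1 called gene of 14 in the list of abscisic acid, dehydrin and LEA genes (7.14%), and was higher in FL478. It read 10.87, 10.66 and 12.00 in FL478 and 9.09, 9.53 and 9.37 in IR29, which is -1.85 ± 0.34 (adjusted p = 0.016). Its second probe set was also called, at -1.36 ± 0.27 (adjusted p = 0.021). The related dehydrins RAB16C and RAB16B, named after their values were seen, had differences of -1.07 and -1.14 and were not called (adjusted p = 0.186 and 0.343). The sums of the list overlapped between the lines, with array means of 8.42 to 9.06 in FL478 and 8.33 to 8.65 in IR29. PP2C16, one of 55 protein phosphatases of type 2C, a family that includes repressors of abscisic acid signalling, was the only call of that family (1.82%) at -1.49 ± 0.30 (adjusted p = 0.0265). BADH1, a betaine aldehyde dehydrogenase, was the only call among 15 proline, betaine and trehalose genes (6.67%), with 11.91, 11.37 and 11.89 in FL478 and 10.70, 10.85 and 10.67 in IR29 (-0.98 ± 0.18, adjusted p = 0.0148). Leaving out FL478 salt replicate 3, IR29 salt replicate 1 or IR29 salt replicate 3 ended the calls of RAB21 (adjusted p = 0.0501, 0.0901 and 0.0585), BADH1 (0.0851, 0.0768 and 0.0667) and PP2C16 (0.115, 0.0973 and 0.0696). FL478 salt replicate 1 did so for BADH1 and PP2C16 (0.0904 and 0.143), and IR29 salt replicate 2 for PP2C16 (0.101).

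Of 28 sodium and potassium transport genes, 1 was called (3.57%). HAK22, of the HAK family of potassium transporters, read 8.61, 7.70 and 8.18 in IR29 and 6.39, 6.50 and 5.995 in FL478, a difference of 1.87 ± 0.34 (adjusted p = 0.0126). Its other probe set, with means of 4.80 and 5.64, lay near the floor and showed -0.84 without a call. The HAK22 call ended without FL478 salt replicate 3, IR29 salt replicate 1 or IR29 salt replicate 3 (adjusted p = 0.0658, 0.0973 and 0.0619). HKT1;5, which retrieves sodium from the xylem and lies in the Saltol region of chromosome 1, was included as a check and was not called. Its levels were 9.36, 9.89 and 9.10 in FL478 and 8.18, 8.89 and 7.77 in IR29, and they did not overlap (-1.17 ± 0.31, adjusted p = 0.109). The mean level of the 28 genes was nevertheless slightly higher on every IR29 salt array, at 8.14 to 8.23 against 7.92 to 8.07. The median difference was only 0.04, with 16 of the 28 genes above 0, and 5 had a mean level under 5.58 over all arrays. The array means of the 25 aquaporins separated as well, at 10.03 to 10.29 in IR29 against 9.93 to 10.01. Their median difference was 0.01, with 13 genes above 0. The largest aquaporin differences, named after their values were seen, were 3.34 at PIP2-7, 1.58 at PIP2-8 and 1.31 at TIP4-1, none called. The lowest was -0.62. Array means of the flavonoid, phenylpropanoid and xylem lists separated too, and those of all other lists overlapped. Of all single probe sets tested, 18.1% separated by line under salt. Among 69 nutrient transporters the call was NRAMP5, which takes up manganese and cadmium (1.45%). It read 12.25, 11.72 and 12.17 in FL478 and 10.85, 11.07 and 10.95 in IR29, or -1.09 ± 0.16 (adjusted p = 0.00282).

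Both genes of the flavonoid list were called and higher in IR29. The list holds only genes whose symbol matched its pattern, and genes known only by a locus number were not examined for this pathway. CHS1, the chalcone synthase that makes the first flavonoid intermediate, read 11.90, 11.84 and 10.82 in IR29 and 9.28, 9.74 and 9.17 in FL478 (2.13 ± 0.29, adjusted p = 0.0018). A dimmer probe set of CHS1 was called as well, at 1.14 ± 0.24 (adjusted p = 0.0293), and 3 further ones lay near the floor. CHI, the chalcone isomerase of the next step, read 11.98, 11.62 and 11.34 in IR29 and 10.18, 11.11 and 10.04 in FL478. Its difference of 1.2 ± 0.27 just passed the threshold (adjusted p = 0.0483), and the call ended without any 1 of the salt arrays other than FL478 salt replicate 2, where the adjusted p reached 0.225, and also without FL478 control replicate 1 or 3 or either IR29 control. LAC20, a laccase of the family that polymerizes lignin, was the 1 call among 29 phenylpropanoid genes (3.45%) and 21 xylem and secondary wall genes (4.76%), lists that share it. It stood at 9.60, 8.94 and 9.86 in IR29 and at 6.79, 7.18 and 6.07 in FL478, 2.79 ± 0.58 apart (adjusted p = 0.0325), and its call ended without any 1 salt array other than FL478 salt replicate 2 (adjusted p up to 0.151). Of the phenylpropanoid genes 23 of 29 and of the xylem genes 16 of 21 lay above 0, against 8600 of all 17905 genes, with medians of 0.40 and 0.23. Besides LAC20 the lists share the laccases LAC3, LAC4, LAC7, LAC10, LAC15, LAC19, LAC23 and LAC24. Their counts, medians and array means are therefore not independent of each other. The IR29 arrays averaged 8.49 to 8.87 over the phenylpropanoid genes and 8.44 to 8.78 over the xylem genes, and the FL478 arrays 8.26 to 8.42 and 8.19 to 8.33. Of the xylem genes 3 had a mean level under 5.58 over all arrays. The secondary wall cellulose synthases CESA4, CESA7 and CESA9, listed as markers of xylem, had differences of 0.52, 0.56 and 0.41 without a call. The genes of the xylem list below 0, named after their values were seen, were LAC24 at -0.76, LAC15 at -0.65, GT43C at -0.37, BC1L2 at -0.31 and IRX14 at -0.01, none of them called. The part of vascular tissue in these values was not tested.

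Antioxidant and defence genes gave the list members with the largest differences. APX5, an ascorbate peroxidase that removes hydrogen peroxide, read 10.10, 10.12 and 9.61 on the FL478 salt arrays and 4.32, 5.18 and 5.47 on the IR29 salt arrays. IR29 was near the floor throughout, and the difference was -4.96 ± 0.73 (adjusted p = 0.00319). The other called antioxidant genes were also higher in FL478: CXXS1, a thioredoxin-like gene, at -0.89 ± 0.17 (adjusted p = 0.0194) and PRX112, a class III peroxidase, at -1.38 ± 0.31 (adjusted p = 0.0495). They made 3 calls in 54 genes (5.56%), and the list's median was -0.07. The defence list had 3 calls in 25 genes (12%), and its members went both ways. Besides RBBI3.3, the chitinase Cht2 was higher in IR29, with 7.09, 7.17 and 6.40 against 4.28, 4.42 and 5.13 (2.28 ± 0.42, adjusted p = 0.0161), while the chitinase Cht1 was higher in FL478, with 10.45, 10.79 and 10.01 against 9.05, 9.06 and 8.67 (-1.49 ± 0.29, adjusted p = 0.0207). The other probe sets of Cht2 were not called and showed -0.06 and 0.56. Calls ended for Cht2 without FL478 salt replicate 1, IR29 salt replicate 1 or IR29 salt replicate 2 (adjusted p up to 0.0902), for Cht1 without any 1 salt array other than FL478 salt replicate 3 (up to 0.0981), for CXXS1 without replicate 1 or 3 of either line under salt (up to 0.103), and for PRX112 without any 1 salt array and without FL478 control replicate 3 or either IR29 control (up to 0.185). The APX5 call was kept in each of these fits.

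The lists of aquaporins, photosynthesis, cell cycle, root-preferred genes, cell wall, jasmonate, glutathione S-transferases, heat shock proteins, sucrose and starch, ethylene with ERF, DREB, NAC and WRKY factors, calcium sensor and SnRK kinases, and cytosolic ribosomal proteins had no called member. The 96 cell cycle genes leaned to FL478, with 29 above 0, a median of -0.11, and 12 lower against 2 higher in IR29 at an unadjusted p under 0.05, where 7.14% of all genes were lower and 8.1% higher. The array means of this list overlapped, at 10.28 to 10.36 in FL478 and 10.18 to 10.32 in IR29 under salt. Its median difference in controls was 0.02. The largest differences without a call, at genes named after their values were seen, were 3.34 at the aquaporin PIP2-7 (adjusted p = 0.0928) and 2.16 at JAZ8, a repressor of jasmonate response (adjusted p = 0.0733). PIP2-7 read 9.66, 10.74 and 8.90 in IR29 and 5.84, 8.93 and 4.51 in FL478, so that FL478 salt replicate 2 lay within the IR29 range. The ribosomal protein genes, by contrast, differed by no more than 0.46 at any of 25 members.

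**Figure D2:**
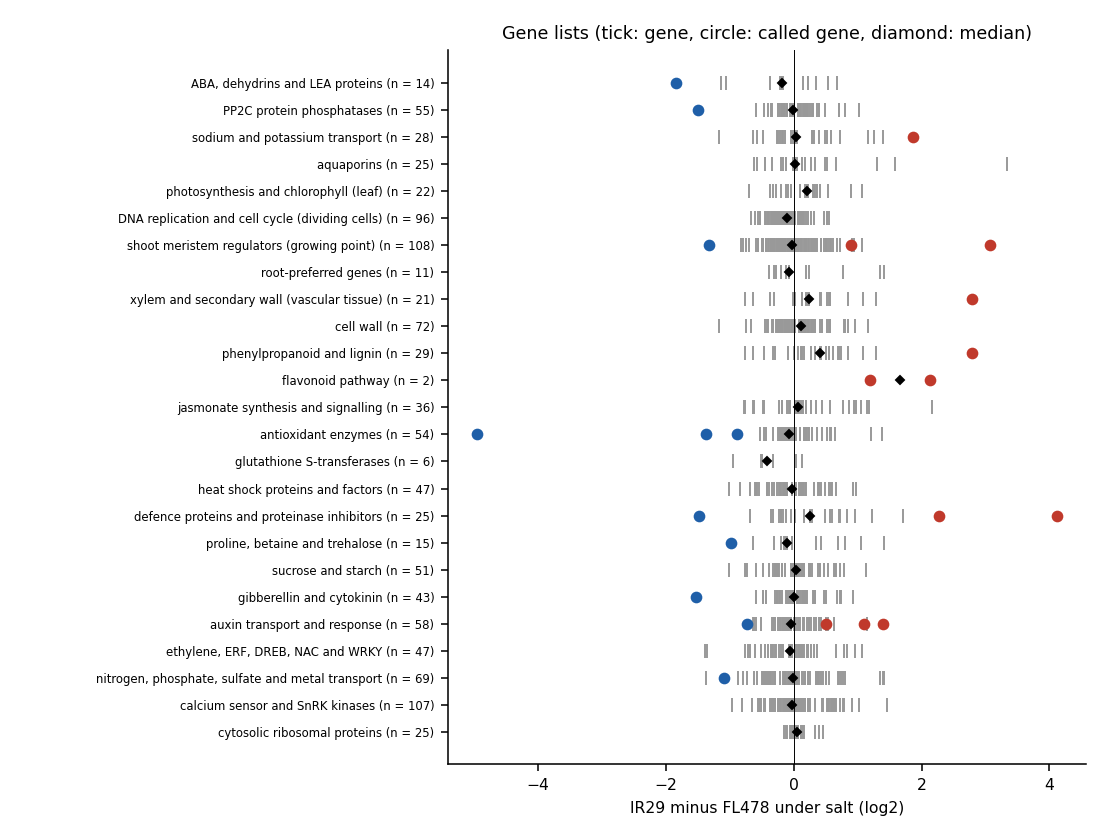
Each tick is a gene of 1 of 25 lists, placed by its IR29 minus FL478 difference under salt (log2). Circles are called genes, red where IR29 and blue where FL478 was higher, and black diamonds are list medians. Called members stand out singly, from -4.96 at APX5 to 4.12 at RBBI3.3, while most medians lie near 0.

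Among the remaining genes with large differences, several stood higher in FL478. SPO11-4, of the topoisomerase-like family whose founding member cuts DNA in meiosis, read 12.58, 12.20 and 12.66 in FL478 and 9.42, 9.78 and 9.54 in IR29 (-2.90 ± 0.16, adjusted p = 1.63e-06). SDH3-2, a subunit of mitochondrial succinate dehydrogenase, read 11.88, 11.37 and 11.71 in FL478 and 9.91, 9.53 and 9.75 in IR29 (-1.92 ± 0.18, adjusted p = 0.000106). A gene for prolamin, a seed storage protein, was at 8.26, 7.22 and 8.63 in FL478 and 5.23, 5.47 and 5.85 in IR29 (-2.52 ± 0.51, adjusted p = 0.0268), and its second probe set was called at -2.78. ALN, the allantoinase of purine breakdown, LOL2, a zinc finger gene, and RMR1, TF1 and HIRL2 had differences from -1.91 to -1.27. On the IR29 side, an agglutinin gene, which encodes a lectin, read 8.98, 9.97 and 9.56 against 7.44, 6.07 and 7.41 in FL478 (2.53 ± 0.37, adjusted p = 0.00318). CRSH2, a calcium-activated chloroplast enzyme that makes the alarmone ppGpp, read 7.18, 7.16 and 6.69 in IR29 and stayed between 4.53 and 4.74 in FL478 (2.37 ± 0.41, adjusted p = 0.0107). BGLU27, a beta-glucosidase, ABCG36, an ABC transporter, LTP2-B, a lipid transfer protein, and PHOT2, a blue light receptor, differed by 1.15 to 1.44. Another bright probe set of LTP2-B gave 0.32 without a call (adjusted p = 0.286), and a dimmer one 0.95 (adjusted p = 0.159). The calls of prolamin, LTP2-B and BGLU27 ended without any 1 salt array other than FL478 salt replicate 2, and that of BGLU27 also without FL478 control replicate 1 (adjusted p up to 0.144, 0.149 and 0.157). Those of PHOT2, ABCG36, TF1, HIRL2 and CRSH2 each ended without 2 to 4 of the salt arrays, while the others of this paragraph were called in every fit with 1 array left out.

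**Figure D3:**
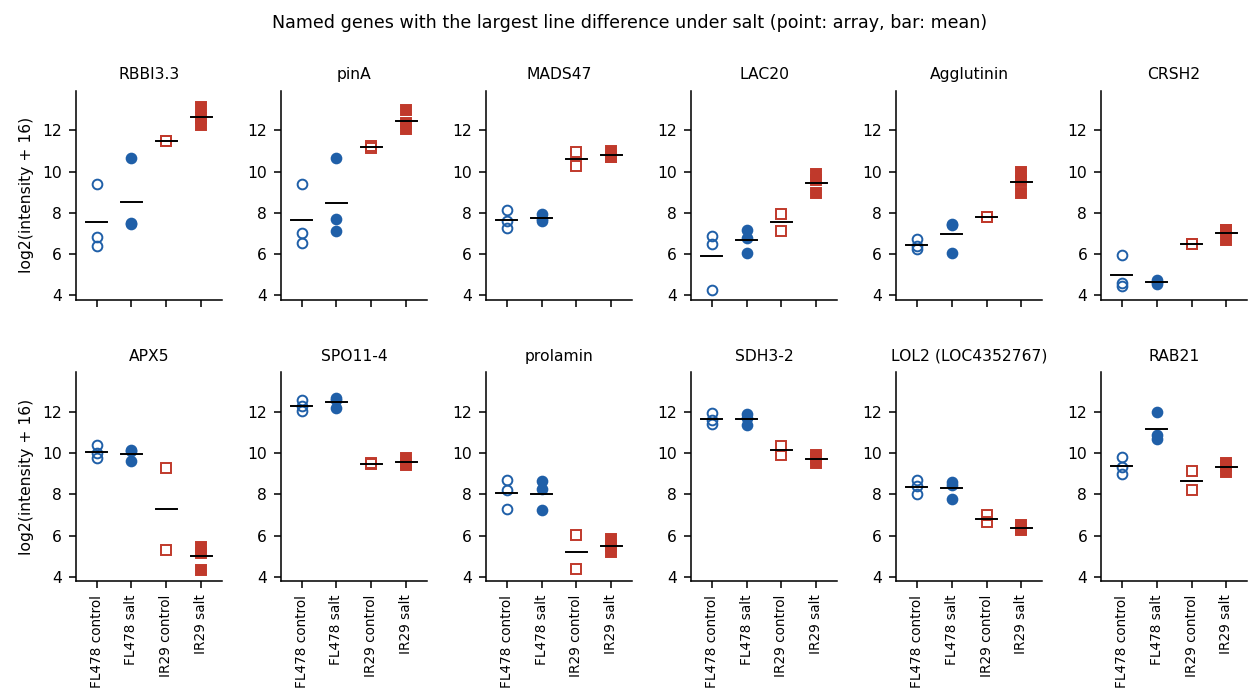
Levels of the 6 genes with a symbol and the largest excess in IR29 (upper row) and in FL478 (lower row) on each of the 11 arrays, log2(intensity + 16). Blue circles are FL478 and red squares IR29, open for control and filled for salt, and bars are group means. The filled symbols of the lines never overlap, FL478 salt replicate 2 stands high at RBBI3.3 and pinA, and 1 IR29 control array stands at 9.27 at APX5.

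The control plants give a reading of the line difference on other arrays, although the fit shares its variance estimate. In controls limma called 466 probe sets (0.814%), 205 higher in IR29 and 261 higher in FL478, and with 2 IR29 arrays the test there had fewer samples. Of the 992 probe sets called under salt, 935 (94.3%) had the same sign in the controls, 384 were called there too in the same direction and 0 in the opposite direction. These 384 are 38.7% of the calls under salt and 82.4% of the calls in controls. The control arrays of the lines did not overlap, in the same direction, at 815 of the 992, and in the opposite direction at 18, while 22.6% of all probe sets showed a separation of either kind. The same sign was found at 511 of 520 probe sets higher in FL478 and at 424 of 472 higher in IR29. The share of equal signs over all probe sets is not given here, so the 94.3% has no background beside it. The median difference, turned so that the line higher under salt is positive, was 1.79 under salt, where the probe sets were selected, and 1.27 in controls.

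**Figure D4:**
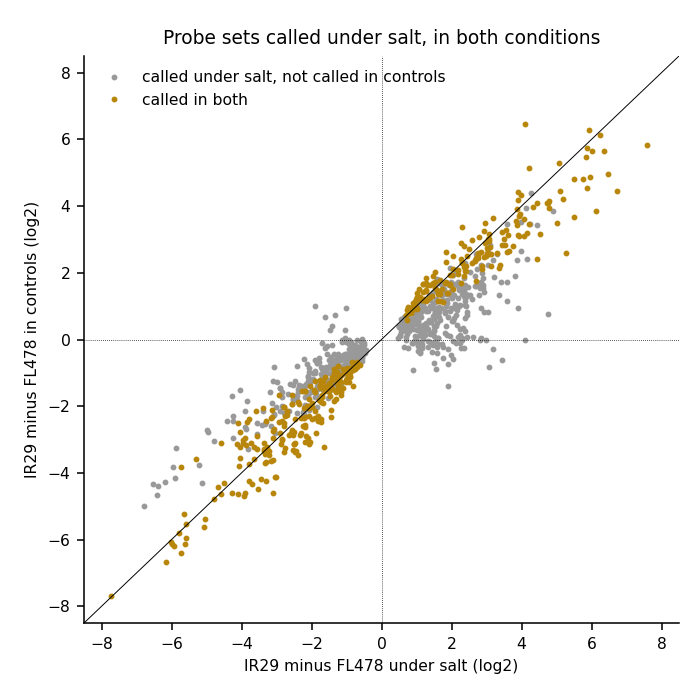
Each point is 1 of the 992 probe sets called under salt, with its IR29 minus FL478 difference under salt (x axis) and in controls (y axis), both log2. Gold points are the 384 called in both conditions, grey points the other 608, and the solid line marks equal differences. Nearly all points, 935, lie in the quadrants of equal sign.

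The control arrays were not alike in this. At the 20 called probe sets that were bright only in IR29 under salt, the FL478 control arrays had median levels of 4.69, 4.57 and 5.91, and 18, 20 and 6 of the probe sets lay under 5.58. At the 26 that were bright only in FL478, the IR29 control arrays had median levels of 6.64 and 4.94, and 9 and 0 of the probe sets stood at 8 or more. IR29 control replicate 1 and FL478 control replicate 3 thus lay between the lines at many of these probe sets, and the part of this in the control values was not tested. Whether these samples held plants of both lines was not tested either, and every difference in controls given here, with the comparison of salt and control differences, includes them unless they are named as left out. At APX5 the IR29 controls read 9.27 and 5.28, while the FL478 arrays, control and salt, ran from 9.61 to 10.40. With IR29 control replicate 2 as the only IR29 control, the median difference in controls was 1.36, and with replicate 1 it was 1.06. Leaving out IR29 control replicate 1 and FL478 control replicate 3 together left 979 calls under salt, 876 of them among the 992, and 329 calls in controls. Calls in controls numbered 286 without FL478 control replicate 1, 306 without FL478 control replicate 2 and 267 without IR29 control replicate 2.

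Several named genes differed alike in both conditions. MADS47 was 3.07 apart under salt and 2.94 ± 0.26 in controls (adjusted p = 0.000123), and SPO11-4 was -2.90 and -2.81 ± 0.18 (adjusted p = 8.8e-06). The probe set with the largest difference was at -7.72 and -7.68 ± 0.42 (adjusted p = 3.17e-06). SDH3-2, SPL14, NRAMP5 and CXXS1 were called in both conditions, with -1.53, -1.15, -0.88 and -0.96 in controls. RBBI3.3 differed by 3.95 ± 0.94 in controls, without a call there (adjusted p = 0.0996), against 4.12 under salt.

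For other genes the difference was near 0 in controls. CHS1 was at 9.53 and 8.87 in the IR29 controls and at 9.45, 9.01 and 9.50 in the FL478 controls, a difference of -0.12 ± 0.32 against 2.13 under salt. HAK22 had 0.14 ± 0.38 in controls against 1.87, BGLU27 -0.36 ± 0.34 against 1.44, and Cht2 -0.27 ± 0.47 against 2.28. The difference between the line differences was tested directly, and limma called 0 of 57258 probe sets for it, with 3059 (5.34%) at an unadjusted p under 0.05 and a lowest adjusted p of 0.219. Among the 992 probe sets called under salt, 222 had an unadjusted p under 0.05 for it, 137 higher in IR29 and 85 higher in FL478. These are selected on an overlapping contrast, so their number is a description. Without IR29 control replicate 2 the count of calls was 21. The 5 called genes with the smallest p in this test were LOC4349605, LOC4350299, LOC4348916, IAA2 and CHS1. At LOC4349605 on chromosome 11 the IR29 salt arrays read 11.72, 11.33 and 10.89 and all other arrays between 9.02 and 9.85, and the line difference was 2.63 ± 0.33 larger under salt than in controls (adjusted p = 0.219). CHS1 gave 2.24 ± 0.43 (adjusted p = 0.618). None of these passed the threshold.

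Along the chromosomes, calls were spread over all 12 and unevenly. Of the 17903 genes with a place in the RefSeq gene table, 454 were called (2.54%), with the highest share on chromosome 12, at 51 of 908 genes (5.62%), then chromosome 8 at 46 of 1206 (3.81%) and chromosome 4 at 55 of 1569 (3.51%). The lowest share was on chromosome 6, at 20 of 1400 (1.43%). Chromosome 12 also had the highest share of calls in controls, 2.86% against 1.09% over all placed genes, while chromosome 5 had the lowest there (0.331%). By direction, chromosome 9 had 16 calls higher in IR29 and 7 higher in FL478, chromosome 10 had 15 and 9, chromosome 8 had 28 and 18, and chromosome 5 had 11 and 23.

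**Figure D5:**
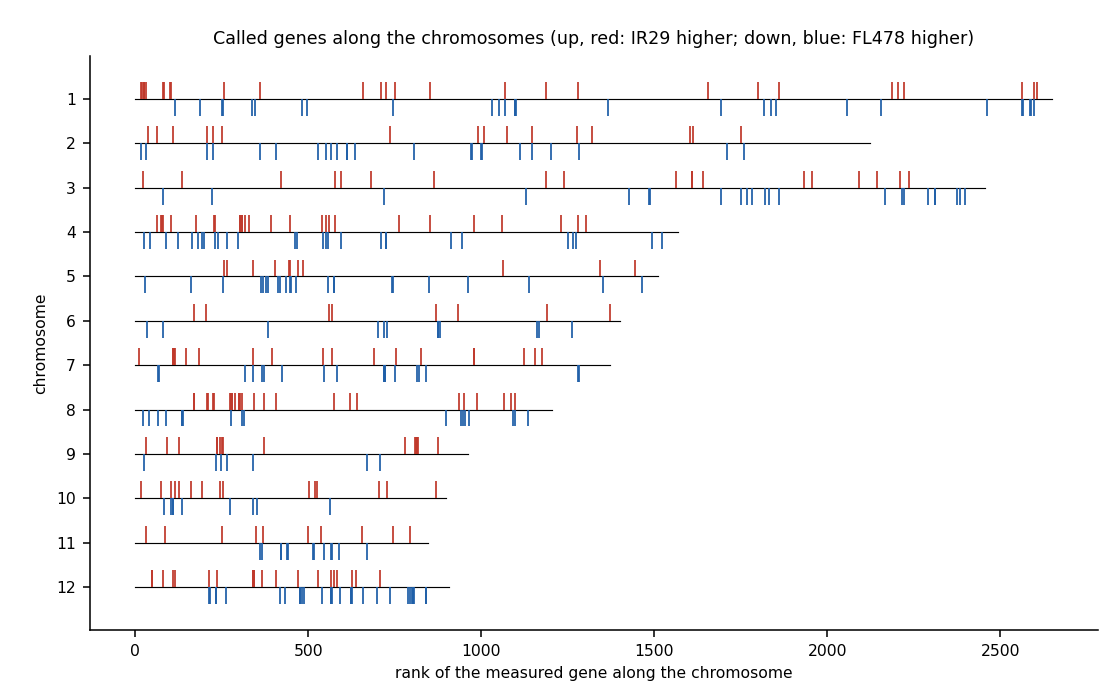
Called genes by their rank among the measured genes of each of the 12 chromosomes (x axis). Red ticks above a line are genes higher in IR29 and blue ticks below it genes higher in FL478 under salt. Calls lie in clusters separated by gaps, the longest of which spans 366 measured genes on chromosome 2.

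When the measured genes were cut into 364 consecutive blocks of 50, 150 blocks held 0 calls and 108 held 1, while 21 blocks held at least 5. Those 21 blocks held 124 of the calls (27.3%) in 5.86% of the genes. In the control arrays 4.95% of the genes of these blocks were called, against 0.18% of the 7205 genes in blocks with 0 calls under salt. Over the 353 full blocks the counts of calls under salt and in controls had a Pearson correlation of 0.67 and a Spearman correlation of 0.60, a description over blocks that share genes, probes and the fit. The highest count, 8 of 50 genes (16%), was found in a block on chromosome 8 and in one on chromosome 5.

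The block of chromosome 8 held 7 genes higher in IR29 and 1 higher in FL478, and 4 of the 8 were also called in controls. LOC4344869 read 8.09, 8.58 and 8.32 in IR29 and 4.43, 4.64 and 4.25 in FL478 (3.89 ± 0.31, adjusted p = 3.29e-05), with 4.41 ± 0.34 in controls. LOC4344829 differed by 3.19 ± 0.40 and its second probe set by 2.92. Its direct neighbour LOC9268385 went the other way, with 9.07, 8.99 and 8.79 in FL478 and 5.51, 4.21 and 4.44 in IR29 (-4.23 ± 0.60, adjusted p = 0.00241). ROC1 lies in the same block. The next block of chromosome 8 held 6 more calls, 4 of them higher in IR29 and 4 called in controls too. The block of chromosome 5 held 3 genes higher in IR29 and 5 higher in FL478, of which 1 was called in controls. There LOC4338198 differed by 2.17 ± 0.31 and LOC4338199, the next measured gene, by -2.53 ± 0.39, and LOC9266168 by -2.53 ± 0.38.

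Further blocks held 6 or 7 calls, some of them in 1 direction. On chromosome 1, a block with 7 calls held LOC4324011 (2.37 ± 0.31), LOC9268634 (1.96 ± 0.21) and LOC4324010, whose 3 probe sets gave -1.64, -5.21 and 1.75. Chromosomes 10 and 12 each had a block with 7 calls as well. All 6 calls of a block on chromosome 7 were higher in IR29, and 5 of them were called in controls. They were LOC4342353, LOC4342354, LOC4342358, LOC9268276, LOC4342360 and LOC4342415, with differences of 4.06, 6.36, 1.54, 2.28, 3.93 and 1.26. A block on chromosome 4 and the first block of chromosome 1 also held 6 calls each, all higher in IR29. In the 12 blocks with 6 or more calls, every called gene had the same sign in the controls. The 94.3% given above is a share of called probe sets, with or without an annotated gene, and not of genes.

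Called genes were direct neighbours in 39 runs: 2 runs of 4 genes, 5 of 3 and 32 of 2. In a run of 4 on chromosome 12, LOC4351893, LOC4351897, LOC9272184 and LOC4351903 were all higher in IR29, by 5.75, 4.23, 5.02 and 0.74, and FL478 stood near the floor at the first 3, with means of 4.28, 4.49 and 4.57. In the other run of 4, also on chromosome 12, LOC4352346 was 3.58 higher in IR29 while LOC4352347, LOC4352348 and LOC4352350 had differences of -2.85, -2.77 and -1.14. Neighbours could therefore differ in the same or in opposite directions.

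Probe sets of 1 gene did not always read alike, which bears on single genes named above. Of the 454 called genes, 110 had several probe sets. In 80 of these all other probe sets had the same sign, in 35 at least 1 other was called in the same direction, and in 4 another was called in the opposite direction. A further 56 genes were called only by a dimmer probe set. At LOC4327927 on chromosome 1 the probe sets gave 6.73, 1.83 and -0.33, the first with 11.59, 11.12 and 11.54 in IR29 and 5.62, 4.34 and 4.08 in FL478. What the probes of these genes match in either line was not analysed here.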

How the data were processed

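Biotin-labelled RNA of each sample, about 8 µg, was hybridized to 1 Affymetrix rice array. The authors deposited linear intensities, 1 for each probe set of an array, and the submitters' processing notes name GCOS 1.2. Which expression algorithm was run is not given in the sources used here. Trimmed means were about 499.95 on each array, so the deposited intensities had been scaled. The number of arrays limits the precision.

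The 123 control probe sets were left out. The other 57258 were transformed as log2(intensity + 16), quantile normalized and analysed in limma 3.58.1 (R 4.3.3), whose model had a mean for each of the 4 groups over 11 arrays (residual degrees of freedom: 7), with the prior variance allowed to depend on the level. Two-sided p-values were adjusted over all probe sets (Benjamini-Hochberg). The labels call the arrays biological replicates, and p-values measure their spread within 1 experiment. The fit was tested on simulated data. Tables and plots used Python 3.11.15, pandas 2.3.3 and matplotlib 3.10.9.

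Exactly 1 gene was annotated for 22436 probe sets, several for 95 and none for 34727. A gene was read by its brightest probe set. Names and gene order came from the RefSeq table of assembly ASM3414082v1, which is not the array's design build, so no coordinates are given. The 25 gene lists are symbol patterns with 1066 memberships. Named genes are the 15 called genes with a symbol and the largest difference in each direction, up to 4 called genes of each list by adjusted p, 3 genes with the largest difference in each of the 3 blocks with most calls, 5 called genes with the smallest p for the difference between the line differences, the 5 probe sets with the largest difference in each direction, and HKT1;5. The comparison, lists and rules were chosen with earlier results of these data known.

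Alternatives, 1 at a time, were an added constant of 1 or 64, no quantile step, cyclic loess, a filter on dim probe sets, the 6 salt arrays alone, array weights, no trend or a robust prior, a replicate block, each array left out, averaging a gene's probe sets, and other block sizes. Leaving out IR29 control replicate 1 with FL478 control replicate 3 was added after seeing the data.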

Additional observations from a re-analysis of the deposited data

Results flagged for a closer look

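At 4 named genes every IR29 salt array lay above every FL478 salt array while every IR29 control array lay below every FL478 control array. LOC4350299 was 3.07 higher in IR29 under salt and 0.82 lower in controls (-0.82 ± 0.50). LOC4349605 was 2.04 higher under salt and had -0.59 ± 0.24 in controls. LOC4348916 had 1.55 under salt and -0.90 ± 0.31 in controls, and IAA2 had 1.10 and -0.36 ± 0.19. None of these control differences was called. The call of LOC4348916 under salt ended without FL478 salt replicate 1, IR29 salt replicate 1 or IR29 salt replicate 2 (adjusted p up to 0.0963). The difference between the conditions was tested in the limma fit and was not called at any of them, with adjusted p = 0.608, 0.219, 0.608 and 0.618. The genes were picked for a small p in that test, so their pattern is a description.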

How the results depend on the processing

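None of the 992 probe sets called under salt changed sign in any alternative that tested it, and of the 60 named genes and probe sets 34 kept their call or lack of one throughout, 26 lost the call at least once (174 of 1315 values) and 0 reversed. With array weights the counts rose to 1660 probe sets, 877 higher in IR29 and 783 higher in FL478, to 780 genes, and to 46 called list memberships in place of 23. With no trend in the variance prior 283 genes and 12 memberships were called. Leaving out 1 array gave 543 to 1279 called probe sets, 227 to 728 higher in IR29, 310 to 551 higher in FL478, 225 to 619 genes, 8 to 31 list memberships, 267 to 525 calls in controls and 0 to 21 calls for the difference between the line differences. The densest block held 16% called genes, against 26.7% with 30 genes per block. The labels do not say that equal replicate numbers mark a shared batch. Correlations of same-numbered deviations ran from -0.05 to 0.13, and those of other pairs from -0.15 to 0.15. The 22 photosynthesis genes, however, averaged lowest on replicate 2 in every group. Their means there were 10.72 and 10.85 in FL478 control and salt, and 10.75 and 10.77 in IR29 control and salt. The source of this shared pattern was not tested. With a replicate block 939 probe sets were called, 857 of them among the 992. Of 575 list medians 25 moved by more than the spread between the IR29 salt arrays. The cause of these shifts was not tested, other than fewer samples where an array was left out. Differences against a line near the floor of about 4 are limited by the dim signal.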
